A study of Rattus norvegicus with 36 samples.

Results

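The change of the silica response between 3 and 12 weeks of inhalation was measured as a difference of differences in lung RNA of rats. For each gene the silica effect at 3 weeks (silica minus air) was subtracted from the silica effect at 12 weeks. The difference is between the 24 arrays of these weeks, of 36 in the series, with 6 arrays in each of 4 groups. All 36 arrays were normalised and fitted together, so the 6-week arrays entered the normalisation and the estimate of the spread. The series exposed rats to crystalline silica or to air and took the lungs after 3, 6 or 12 weeks. Lung RNA, 375 ng a rat, was hybridised to Illumina rat BeadChips, 1 array per rat. The groups compared were rats exposed to silica for 12 weeks, rats exposed to air for 12 weeks, rats exposed to silica for 3 weeks and rats exposed to air for 3 weeks. All were males of the strain given as CDF Fisher 344, with an age of 3 months in the labels. Silica was inhaled at 15 mg/m3 for 6 h a day on 5 days a week, and each length of exposure had its own air group. Chips and scan batches are not part of the labels, so week and array batch cannot be told apart. A shift shared by silica and air rats of 1 week cancels in the difference.

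Inhaled crystalline silica is taken up by alveolar macrophages, whose lysosomes it damages. The injured cells release cytokines and chemokines that bring neutrophils, monocytes and lymphocytes into the lung, and lasting exposure leads to scarring. Epithelial cells of the airways and alveoli answer with secreted defence proteins, proteases and surfactant. The comparison asks which of these responses came late and which faded as exposure went on.

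The 24 arrays had a mean raw intensity of 378 to 519 and a median of 52.0 to 65.5, and 48.7% to 53.1% of probes were detected. The tissue label was matched by type II pneumocyte genes, whose 14 measured markers had a mean log2 level of 12.1 to 12.2 in 12-week silica rats, 11.8 to 11.9 in 12-week air rats, 11.9 to 12.1 in 3-week silica rats and 11.8 to 11.9 in 3-week air rats. In a principal component analysis of all 36 arrays, 2 of the 24 stood apart. Silica replicate 3 at 12 weeks lay at 15.1 and air replicate 5 at 3 weeks at 8.72 on the first component, while the other 22 lay between -25.0 and -8.10. The 6-week arrays lay between 22.7 and 29.8 on it, so these 2 arrays lay toward the 6-week arrays. The groups of these 2 arrays enter the difference with the same sign, so the main results are also given without both arrays. Silica replicate 4 at 3 weeks marked the low end, and leaving it out as well was added after seeing the data. The labels do not tie the replicates of a group to separate batches, and p-values measure the spread between these rats.

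Of 9078 genes tested, 260 (2.86%) had a silica effect at 12 weeks that differed from that at 3 weeks, at a Benjamini-Hochberg adjusted p under 0.05 in limma. The difference was above 0 for 139 genes (1.53%) and below 0 for 121 (1.33%). It was at least 1.5-fold for 43 genes above 0 (0.474%) and for 10 below 0 (0.11%). At an unadjusted p under 0.05 there were 2037 genes (22.4%). When only the 24 arrays were normalised and fitted, 8 genes were called above 0 and 11 below 0. With median scaling in place of quantile normalisation, 39 genes were called above 0 and 119 below 0, a share above 0 of 24.7% against 53.5%. That scaling moved the median difference of all genes to -0.12 on the log2 scale, against -0.02. Without the 2 arrays that stand apart, 29 genes were called above 0 and 14 below 0, and 38 of these 43 were among the 260. Without 3 arrays the counts were 33 and 11. All 260 kept the sign of their difference in both settings, and 31 were called with all arrays, without 2 and without 3. These settings reuse most of the arrays that picked the genes, so a kept sign is a weak check. Of 70 named genes that were called, 47 were not called without the 2 arrays and 26 not with median scaling.

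The within-week effects sort the 260 genes. A rise that was called at 12 weeks and not at 3 weeks, a late rise, was seen for 72 genes, whose median silica effect was -0.08 at 3 weeks, 0.12 at 6 weeks and 0.38 at 12 weeks on the log2 scale. A growing rise, called higher at both weeks and more so at 12 weeks, was seen for 21 genes with medians of 0.36, 0.57 and 0.79. A late fall was the largest class, with 91 genes and medians of 0.05, -0.10 and -0.31. Another 3 genes fell at both weeks and further at 12 weeks. A rise called at 3 weeks was smaller or no longer called at 12 weeks for 21 genes, with medians of 0.29, 0.02 and -0.12, and a fall called at 3 weeks was smaller or no longer called for 30, with medians of -0.31, -0.12 and 0.15. A further 10 genes were called in opposite directions at the 2 weeks, and 12 were called at neither. At 6 weeks, 19 of the 72 late rises and 29 of the 91 late falls were already called in the same direction. The 12 arrays of 6 weeks are in none of the 4 groups but shared the normalisation and the fit. The share of all genes called at 6 weeks is not given here, so these counts have no background to be read against. Without the 2 arrays the classes held 20 late rises, 5 growing rises, 12 late falls, 2 fading rises, 2 fading falls and 2 turned genes. The contrast within 12 weeks called 1061 genes higher (11.7%) and 1290 lower (14.2%), and that within 3 weeks 682 higher (7.51%) and 552 lower (6.08%). Silica and air rats did not overlap for 5.62% of genes that were higher with silica and 5.77% lower at 12 weeks, and for 3.89% higher and 2.3% lower at 3 weeks. Silica rats of 12 and 3 weeks did not overlap for 4.43% higher and 6.6% lower at 12 weeks.

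**Figure D1:**
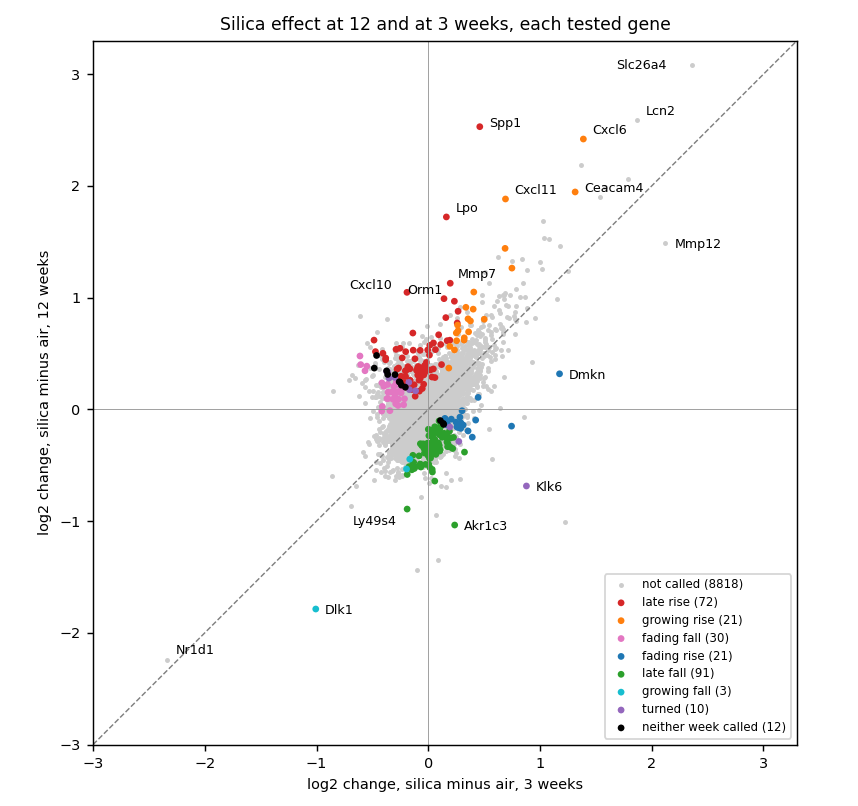
The silica effect at 12 weeks (vertical axis, log2 silica minus air) is plotted against that at 3 weeks (horizontal axis) for each of the 9078 tested genes, with the 260 called genes coloured by class and equal effects on the dashed line. Lpo, Cxcl10 and Mmp7 lie within 0.20 of 0 at 3 weeks and higher at 12 weeks, Spp1 lies at 0.46 at 3 weeks and 2.53 at 12 weeks, Dmkn lies high at 3 weeks, and Slc26a4, Lcn2, Mmp12 and Nr1d1 have large effects at both weeks without a called difference.

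Lpo and Orm1, secreted defence proteins, rose late. Lpo is lactoperoxidase, an antimicrobial enzyme of airway secretions. Log2 levels are given here as the lowest, the median and the highest of 6 rats. Lpo stood at 5.40, 6.38 and 7.29 in 12-week silica rats, against 4.52, 4.62 and 4.73 in 12-week air rats, and at 4.77, 4.80 and 5.03 in 3-week silica rats, against 4.53, 4.67 and 4.83 in 3-week air rats. It was detected in 6 of 6 silica rats at 12 weeks, in 1 of 6 silica rats at 3 weeks and in 0 of 6 air rats at either week. The 12-week silica rats lay above all other rats without overlap, and the 3-week silica and air rats overlapped. Against the detection limit, Lpo was at least 3.16-fold higher in silica rats than in air rats at 12 weeks. Its effect was 0.16 at 3 weeks, 0.16 at 6 weeks and 1.72 at 12 weeks, and the fitted difference was 1.56 ± 0.24 (SE, adjusted p = 0.00151). As the air rats and most 3-week silica rats were not above background, that difference is no measured size. Without the 2 arrays it was 1.76 with an adjusted p of 5.88e-06. Orm1, orosomucoid, an acute phase protein, stood at 4.92, 5.68 and 6.36 in 12-week silica rats, against 4.60, 4.67 and 4.79 in 12-week air rats, and at 4.85, 4.97 and 5.35 in 3-week silica rats, against 4.69, 4.75 and 4.92 in 3-week air rats. At 12 weeks every silica rat and no air rat passed detection, which set it at least 1.92-fold higher with silica, and at 3 weeks 3 silica rats and 1 air rat passed. The 12-week groups did not overlap and the 3-week groups did, and the difference was 0.73 ± 0.18 (SE, adjusted p = 0.0273), with an adjusted p of 0.00251 without the 2 arrays.

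Pigr, the receptor that carries IgA across epithelium, and Cd14, a co-receptor for bacterial lipopolysaccharide, were the other called members of the list of acute phase and secreted defence proteins. Their differences were 0.61 ± 0.15 (SE, adjusted p = 0.0268) and 0.43 ± 0.12 (SE, adjusted p = 0.0395), and neither call held without the 2 arrays, at adjusted p of 0.076 and 0.062. Of Pigr's difference the larger part came from the air rats, which differed by -0.47 on the log2 scale for 12 minus 3 weeks, while silica rats differed by 0.14. In all, 4 of 19 measured members of the list were called above 0 and 0 below 0, against 1.53% above 0 of all genes, and its median difference was 0.25 against -0.02 over all genes. Wfdc18, of the whey acidic protein family, and Dhrs9, an enzyme that oxidises retinol, were chosen after their values were seen. Wfdc18 was detected in 5 of 6 silica rats at 12 weeks and in 0 of 6 at 3 weeks, at least 1.5-fold higher, with a difference of 0.55 ± 0.15 (SE, adjusted p = 0.0411). Dhrs9 was detected in 5 of 6 silica rats at 12 weeks and in no rat of the other groups, and its difference was 0.47 ± 0.10 (SE, adjusted p = 0.015). Both were called without the 2 arrays too, at adjusted p of 0.0185 and 0.0189. Slc26a4, the anion exchanger pendrin, and Lcn2, an iron-binding defence protein, were not called, and Lcn2 was chosen after its values were seen. Slc26a4 had an effect of 3.08 ± 0.32 at 12 weeks and 2.36 ± 0.32 at 3 weeks, with a difference of 0.72 ± 0.46 (SE, adjusted p = 0.351) and a 95% interval of -0.21 to 1.65. For Lcn2 the effects were 2.59 ± 0.27 and 1.87 ± 0.27, with a difference of 0.72 ± 0.37 (SE, adjusted p = 0.253), whose interval ran from -0.05 to 1.48.

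Cxcl10 and Cxcl11, ligands of the receptor Cxcr3 on activated T cells, had larger silica effects at 12 than at 3 weeks. Cxcl10 stood at 5.81, 7.02 and 7.54 in 12-week silica rats, against 5.74, 5.77 and 5.91 in 12-week air rats, and at 5.62, 5.84 and 5.92 in 3-week silica rats, against 5.73, 5.90 and 6.41 in 3-week air rats. Silica replicate 3 at 12 weeks, at 5.81, was the only 12-week silica rat below the highest 12-week air rat. Cxcl10's effect was -0.19 at 3 weeks, -0.07 at 6 weeks and 1.05 at 12 weeks. The difference was 1.24 ± 0.28 (SE, adjusted p = 0.0207), and 1.48 with an adjusted p of 0.00238 without the 2 arrays. Cxcl11 stood at 6.02, 7.03 and 7.97 in 12-week silica rats, against 5.01, 5.03 and 5.42 in 12-week air rats, and at 5.61, 5.91 and 6.42 in 3-week silica rats, against 5.00, 5.22 and 5.70 in 3-week air rats. The 12-week groups did not overlap, while at 3 weeks silica rats were higher with overlap. Cxcl11 rose by 0.69 at 3 weeks and by 1.88 at 12 weeks, with a difference of 1.19 ± 0.32 (SE, adjusted p = 0.0395), but the call was lost in 12 of 24 fits that left out 1 array. Cxcl9, the remaining Cxcr3 ligand, chosen after its values were seen, was not called, with a difference of 0.53 ± 0.18 (SE, adjusted p = 0.0841). Of 13 lymphocyte-attracting chemokines 2 were called above 0, against 1.53% of all genes, and 0 below 0, and their median difference was 0.10 against -0.02.

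The promoters of the called Cxcr3 ligands are shown because both are textbook targets of interferon and NF-kB. The 250 bases before each gene's start come from RefSeq on the build GRCr8, Cxcl10 from chr14:15988816-15989065, plus strand, and Cxcl11 from chr14:15973478-15973727, plus strand. Capitals mark exact matches, searched on both strands, to a kB site and to the core of the interferon-stimulated response element.
Cxcl10: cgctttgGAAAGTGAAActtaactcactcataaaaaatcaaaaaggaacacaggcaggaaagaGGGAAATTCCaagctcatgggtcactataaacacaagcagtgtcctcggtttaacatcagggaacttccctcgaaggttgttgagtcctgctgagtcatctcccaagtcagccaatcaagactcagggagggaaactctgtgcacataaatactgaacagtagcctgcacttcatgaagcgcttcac
Cxcl11: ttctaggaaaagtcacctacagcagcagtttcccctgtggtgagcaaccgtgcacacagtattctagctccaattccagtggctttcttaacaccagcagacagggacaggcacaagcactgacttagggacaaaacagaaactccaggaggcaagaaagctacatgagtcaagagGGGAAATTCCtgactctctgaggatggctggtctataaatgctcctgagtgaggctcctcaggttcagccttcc
The kB site's letters begin 187 bases before the start in Cxcl10 and 74 bases in Cxcl11, and 0.0947% of 27457 rat promoters of this length hold them. The response element letters begin 243 bases before the start in Cxcl10 only, and 3.29% of promoters hold them. No 2 matches overlap. A match describes these letters and does not show binding.

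Neutrophil- and monocyte-attracting chemokines were mostly called higher at both weeks. Cxcl6, which attracts neutrophils, stood at 6.02, 6.77 and 7.86 in 12-week silica rats, against 4.47, 4.54 and 4.62 in 12-week air rats, and at 5.52, 6.03 and 6.36 in 3-week silica rats, against 4.51, 4.55 and 4.71 in 3-week air rats. Every silica rat and no air rat passed detection at each week, so it was at least 4.88-fold higher at 12 weeks and at least 2.44-fold higher at 3 weeks. The groups of a week did not overlap. The silica effect was 1.39 at 3 weeks, 3.52 at 6 weeks and 2.42 at 12 weeks, so its largest value was at 6 weeks. Its difference was 1.03 ± 0.27 (SE, adjusted p = 0.0395), with an adjusted p of 0.0852 without the 2 arrays. Cx3cl1, fractalkine, which binds Cx3cr1 on monocytes, had a difference of 0.64 ± 0.15 (SE, adjusted p = 0.0227), from a silica effect of 1.05 at 12 weeks and 0.41 at 3 weeks, and an adjusted p of 0.061 without the 2 arrays. Its larger part came from air rats, at -0.42 for 12 minus 3 weeks, against 0.22 for silica rats. Of the 16 measured chemokines of this list 2 were called above 0, against 1.53% of all genes, and 0 below 0. Within 12 weeks 14 of the 16 were called higher, against 11.7% of all genes, and within 3 weeks 13, against 7.51%. The list's median difference was 0.23, against -0.02 over all genes.

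Of 16 measured genes of MHC class II antigen presentation 3 were called above 0, against 1.53% of all genes, and 0 below 0, and 0 were called either way with median scaling. The RT1 class II chains of the rat show peptides to CD4 T cells, and the invariant chain guides their assembly. RT1-Ba, an alpha chain, stood at 10.62, 10.90 and 11.08 in 12-week silica rats, against 10.22, 10.25 and 10.42 in 12-week air rats, and at 10.40, 10.63 and 10.73 in 3-week silica rats, against 10.35, 10.41 and 10.67 in 3-week air rats. The 12-week groups did not overlap and the 3-week groups did. The effect was 0.17 at 3 weeks, 0.53 at 6 weeks and 0.61 at 12 weeks, and the difference was 0.45 ± 0.09 (SE, adjusted p = 0.015), with an adjusted p of 0.00251 without the 2 arrays. RT1-Db1, a beta chain, had effects of 0.82 at 12 weeks and 0.16 at 3 weeks and a difference of 0.66 ± 0.15 (SE, adjusted p = 0.023). RT1-Da, an alpha chain, rose at both weeks without overlap, by 0.37 and 0.18, with a difference of 0.19 ± 0.05 (SE, adjusted p = 0.0411). Without the 2 arrays their adjusted p were 0.0655 and 0.0558. Of the 16 members 15 had a difference above 0, against 4050 of all 9078 genes. The median difference was 0.19 with all arrays and 0.20 without the 2 arrays. With median scaling the list's median was 0.07, against -0.12 for all genes. Cd74, the invariant chain, chosen after its values were seen, had effects of 0.48 at 12 weeks and 0.43 at 3 weeks and a difference of 0.05 ± 0.12 (SE, adjusted p = 0.849). The 2 arrays that stand apart were the lowest of their groups for Cd74, and both make its difference smaller. Silica replicate 3 at 12 weeks stood at 11.5, against 12.0 to 12.2 in the others, and air replicate 5 at 3 weeks at 11.2, against 11.6 to 11.7. Whether an RT1 probe also reads a related RT1 gene was not tested.

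The promoters of the called class II genes are shown because they share the boxes that RFX and NF-Y proteins are known to bind. The bases are again the 250 before the start from RefSeq on GRCr8, RT1-Ba from chr20:4576807-4577056, plus strand, RT1-Da from chr20:4515165-4515414, plus strand, and RT1-Db1 from chr20:4560163-4560412, minus strand. Capitals mark exact matches on either strand to GCAACNG, the core of the X box, and to CTGATTGG, the Y box.
RT1-Ba: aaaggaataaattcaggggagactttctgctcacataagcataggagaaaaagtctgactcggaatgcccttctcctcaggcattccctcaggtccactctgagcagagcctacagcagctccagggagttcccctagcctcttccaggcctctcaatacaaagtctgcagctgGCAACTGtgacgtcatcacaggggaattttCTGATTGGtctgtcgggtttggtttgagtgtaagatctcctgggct
RT1-Da: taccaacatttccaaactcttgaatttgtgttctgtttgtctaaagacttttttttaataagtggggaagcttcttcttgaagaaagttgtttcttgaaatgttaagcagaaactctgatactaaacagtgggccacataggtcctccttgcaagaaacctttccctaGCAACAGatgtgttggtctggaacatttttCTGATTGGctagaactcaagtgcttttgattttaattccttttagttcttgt
RT1-Db1: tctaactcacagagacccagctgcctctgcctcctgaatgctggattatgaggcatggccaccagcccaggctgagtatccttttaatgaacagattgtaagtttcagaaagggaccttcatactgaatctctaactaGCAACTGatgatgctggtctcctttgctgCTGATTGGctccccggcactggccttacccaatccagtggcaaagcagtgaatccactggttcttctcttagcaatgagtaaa
The X box letters begin 76, 82 and 112 bases before the start in RT1-Ba, RT1-Da and RT1-Db1, and the Y box letters 46, 52 and 83 bases before it. Of 27457 rat promoters of this length 9.78% hold the X box letters, 3.26% the Y box letters and 0.302% both. No 2 matches overlap, and a match does not show binding.

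Interferon-induced genes had small differences. Of 26 measured, 22 had a difference above 0, against 4050 of all 9078 genes, and the median was 0.16, against -0.02. Only Igtp, an interferon-gamma induced GTPase, was called above 0 and 0 were called below 0, against 1.53% and 1.33% of all genes. Igtp had effects of 0.52 at 12 weeks and -0.47 at 3 weeks and a difference of 0.99 ± 0.28 (SE, adjusted p = 0.0443). Its highest 12-week silica rat was replicate 3, and the adjusted p without the 2 arrays was 0.0655. Janus kinases, which signal from cytokine and interferon receptors, were chosen after their values were seen. Jak2 and Jak3 rose late, with effects of 0.38 and 0.38 at 12 weeks and -0.09 and -0.03 at 3 weeks. Jak1 was lower at 3 weeks without overlap, with an effect of -0.37, against 0.10 at 12 weeks. The differences were 0.47 ± 0.10 (SE, adjusted p = 0.0177) for Jak1, 0.47 ± 0.09 (SE, adjusted p = 0.015) for Jak2 and 0.41 ± 0.09 (SE, adjusted p = 0.0188) for Jak3. Without the 2 arrays the adjusted p were 0.0364, 0.0204 and 0.0509, and with median scaling 0.0995, 0.104 and 0.122. Stat5a, a transcription factor that Janus kinases activate, went the other way, with a called difference of -0.45. That call held in 23 of 24 fits that left out 1 array and was lost without the 2 arrays. Stat5a was added after its values were seen and is not counted among the named genes. No list of Janus kinase signalling was counted, so its direction as a whole was not tested.

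Matrix and macrophage genes included the largest single difference. Spp1, osteopontin, a matrix protein secreted by macrophages and epithelium in lung injury, stood at 8.74, 9.56 and 10.18 in 12-week silica rats, against 6.12, 6.98 and 7.69 in 12-week air rats, and at 6.62, 7.45 and 7.74 in 3-week silica rats, against 6.32, 6.92 and 7.84 in 3-week air rats. The 12-week groups did not overlap, and the 3-week groups did. Spp1 was 5.78-fold higher in silica rats than in air rats at 12 weeks, and its effect was 0.46 at 3 weeks, 1.06 at 6 weeks and 2.53 at 12 weeks. The difference was 2.07 ± 0.57 (SE, adjusted p = 0.0437) with a 95% interval of 0.91 to 3.22. Without the 2 arrays it was 2.33 with an adjusted p of 0.0558, and the call was lost in 14 of 24 fits that left out 1 array. Mmp7, matrilysin, a protease made by airway and alveolar epithelium, stood at 5.10, 5.62 and 6.52 in 12-week silica rats, against 4.43, 4.62 and 4.67 in 12-week air rats, and at 4.64, 4.76 and 4.92 in 3-week silica rats, against 4.54, 4.57 and 4.62 in 3-week air rats. At 12 weeks every silica rat and no air rat passed detection, and the level with silica was at least 2.05-fold higher. At 3 weeks 1 silica rat passed. The 12-week silica rats lay above all other rats, and at 3 weeks the silica rats also lay above the air rats, with an effect of 0.20 that did not pass the test. The difference was 0.93 ± 0.19 (SE, adjusted p = 0.015), with an adjusted p of 0.00238 without the 2 arrays. Mmp12, the elastase of macrophages, chosen after its values were seen, had an effect of 1.49 at 12 weeks and 2.12 at 3 weeks, and its difference of -0.63 ± 0.42 (SE, adjusted p = 0.371) did not pass the test. Of 19 matrix proteases and inhibitors Mmp7 alone was called above 0 and 0 were called below 0, against 1.53% and 1.33% of all genes.

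**Figure D2:**
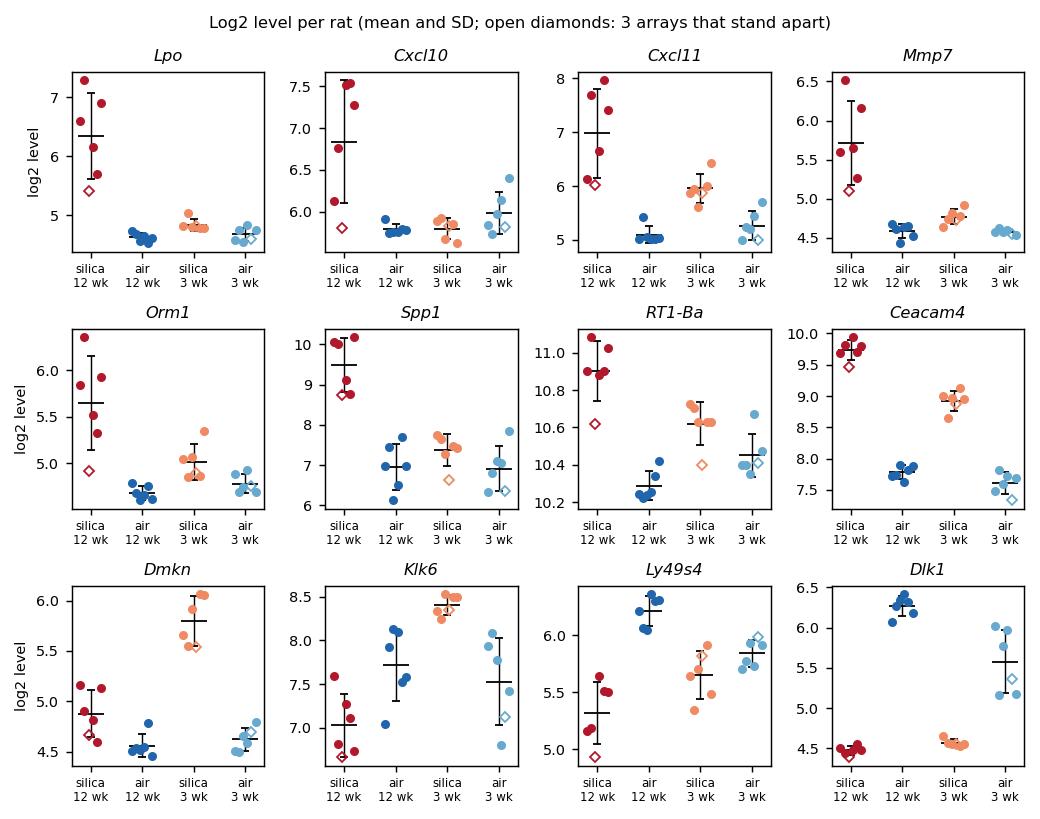
Each panel plots the log2 level of 1 gene (vertical axis) for the 6 rats of the 12-week silica, 12-week air, 3-week silica and 3-week air groups, with the mean and SD in black. Open diamonds are silica replicate 3 at 12 weeks, silica replicate 4 at 3 weeks and air replicate 5 at 3 weeks. Lpo, Mmp7 and Spp1 are highest in the 12-week silica group, Dmkn and Klk6 are highest in the 3-week silica group, and Dlk1 differs between the 2 air groups.

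Other called genes of inflammation had smaller differences. Cxcl and Jak genes aside, Il1rn, the natural antagonist of the interleukin-1 receptor, had a difference of 0.66 ± 0.18 (SE, adjusted p = 0.041), and Ncf4, a subunit of the phagocyte NADPH oxidase, of 0.47 ± 0.12 (SE, adjusted p = 0.0395). Sod2, the mitochondrial superoxide dismutase, rose at both weeks, by 1.26 at 12 weeks and 0.75 at 3 weeks, with a difference of 0.52 ± 0.14 (SE, adjusted p = 0.0395). Clec10a, a lectin of macrophages and dendritic cells, had a difference of 0.30 ± 0.08 (SE, adjusted p = 0.0392). Rrm2, a subunit of ribonucleotide reductase needed for DNA synthesis, had a difference of 0.51 ± 0.14 (SE, adjusted p = 0.0437), and Ccnd1, cyclin D1, one of -0.27 ± 0.07 (SE, adjusted p = 0.039). None of these 6 was called without the 2 arrays, where adjusted p ran from 0.0701 for Ncf4 to 0.113 for Il1rn. In the lists around them, 1 of 22 genes of IL-1, TNF and NF-kB signalling, 1 of 25 NRF2 targets and antioxidant enzymes, and 1 of 32 cell cycle genes were called above 0. Over all genes 1.53% were called above 0 and 1.33% below 0. Of 14 genes of NADPH oxidase and nitric oxide synthesis 1 was called above 0 and 1 below 0. The one below 0 was Duox2, an airway oxidase, at -0.42 ± 0.09 (SE, adjusted p = 0.0175), with an adjusted p of 0.0364 without the 2 arrays and air rats higher at 12 weeks by 0.37. Fcgr3a, an IgG receptor, rose at 3 weeks by 0.25 and stood at -0.11 at 12 weeks, a difference of -0.36 ± 0.10 (SE, adjusted p = 0.0437), with an adjusted p of 0.132 without the 2 arrays. Neutrophil markers, 12 measured, had 0 called members and a median difference of 0.30. Their mean log2 level ran from 7.10 to 7.47 in 12-week silica rats, 6.55 to 6.88 in 12-week air rats, 6.89 to 7.13 in 3-week silica rats and 6.51 to 6.72 in 3-week air rats. In whole lung, fewer cells of a type and less RNA per cell cannot be told apart. Itgam, the CD11b chain of neutrophils and macrophages, chosen after its values were seen, was called without the 2 arrays, at 0.70 with an adjusted p of 0.022, and not with all arrays, at 0.47 ± 0.19 (SE, adjusted p = 0.142).

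The growing rises Ceacam4, Cxadrl1 and Gja1 and the late rise Otulinl were chosen after their values were seen. Ceacam4, of the carcinoembryonic antigen family of adhesion molecules, stood at 9.46, 9.75 and 9.94 in 12-week silica rats, against 7.63, 7.78 and 7.91 in 12-week air rats, and at 8.65, 8.96 and 9.13 in 3-week silica rats, against 7.33, 7.64 and 7.82 in 3-week air rats. The groups of each week did not overlap, nor did the silica rats of the 2 weeks. Its effect was 1.32 at 3 weeks, 1.73 at 6 weeks and 1.95 at 12 weeks, with a difference of 0.63 ± 0.12 (SE, adjusted p = 0.015), an adjusted p of 0.000393 without the 2 arrays and of 0.0682 with median scaling. Cxadrl1 had effects of 1.44 at 12 weeks and 0.69 at 3 weeks and a difference of 0.75 ± 0.16 (SE, adjusted p = 0.0177). Gja1, connexin 43 of gap junctions, had a difference of 0.44 ± 0.09 (SE, adjusted p = 0.0175), and Otulinl, a late rise, one of 0.57 ± 0.12 (SE, adjusted p = 0.015). With median scaling their adjusted p were 0.123 and 0.0722. Cxadrl1 was 1 of 8 genes called in all 24 fits that left out 1 array and in all 12 other settings.

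Dmkn, Klk6 and Krt15 had silica effects above 0 at 3 weeks and lower ones at 12 weeks. Dmkn, dermokine, a secreted protein of stratified epithelia, stood at 4.60, 4.86 and 5.16 in 12-week silica rats, against 4.46, 4.53 and 4.79 in 12-week air rats, and at 5.54, 5.79 and 6.06 in 3-week silica rats, against 4.50, 4.62 and 4.79 in 3-week air rats. At 3 weeks every silica rat and no air rat passed detection, and the level with silica was at least 2.13-fold higher. At 12 weeks 3 silica rats and no air rat passed. The 3-week silica rats lay above all other rats without overlap. The effect was 1.18 at 3 weeks, 0.27 at 6 weeks and 0.32 at 12 weeks, and the difference was -0.86 ± 0.14 (SE, adjusted p = 0.00322), with an adjusted p of 0.0041 without the 2 arrays. Klk6, a kallikrein serine protease, stood at 6.66, 6.96 and 7.59 in 12-week silica rats, against 7.05, 7.75 and 8.13 in 12-week air rats, and at 8.24, 8.42 and 8.53 in 3-week silica rats, against 6.81, 7.60 and 8.09 in 3-week air rats. It was higher with silica at 3 weeks without overlap, by 0.88, and lower at 12 weeks with overlap, at -0.69. The difference was -1.56 ± 0.36 (SE, adjusted p = 0.0218), the most negative of all called genes, with an adjusted p of 0.061 without the 2 arrays. Krt15, a keratin of basal epithelial cells, stood at 5.33, 6.10 and 6.36 in 12-week silica rats, against 5.98, 6.09 and 6.53 in 12-week air rats, and at 6.46, 6.88 and 7.26 in 3-week silica rats, against 5.64, 6.19 and 6.47 in 3-week air rats. It rose at 3 weeks by 0.75 and had an effect of -0.15 at 12 weeks, with a difference of -0.90 ± 0.24 (SE, adjusted p = 0.0395) and an adjusted p of 0.113 without the 2 arrays.

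Airway cell markers are given beside these genes. Of 12 ciliated cell markers 0 had a difference above 0, against 4050 of all 9078 genes, and 0 were called. Their median difference was -0.39, against -0.02 over all genes. Dnai1, a dynein arm protein of cilia, and Tppp3, a tubulin-binding protein, had the smallest p of the list, with differences of -0.51 ± 0.19 (SE, adjusted p = 0.102) and -0.34 ± 0.12 (SE, adjusted p = 0.0917). Outside the list, Ift46, Ift27 and Ift22, genes of intraflagellar transport in cilia, and Kif9, a kinesin, were called below 0. Their differences were -0.34, -0.40, -0.40 and -0.52, and none was called without the 2 arrays. They were added after their values were seen and are not counted among the named genes. Ift genes that were not called are not given here. The ciliated list's mean log2 level ran from 7.68 to 8.29 in 12-week silica rats, 8.07 to 8.52 in 12-week air rats, 8.25 to 8.87 in 3-week silica rats and 8.05 to 8.54 in 3-week air rats. For 11 markers of club and airway secretory cells the median difference was -0.31, and the levels ran from 8.92 to 9.60 in 12-week silica rats, 9.06 to 10.1 in 12-week air rats, 9.40 to 10.8 in 3-week silica rats and 9.58 to 10.3 in 3-week air rats. Krt15, below 0, and Pigr, above 0, are members of that list and were its called ones, against 1.33% and 1.53% of all genes. Heart muscle markers, 14 measured, had 0 called members and a median difference of -0.36, and their levels ran from 5.23 to 6.69 in 12-week silica rats, 5.26 to 7.30 in 12-week air rats, 5.44 to 8.31 in 3-week silica rats and 5.25 to 8.17 in 3-week air rats. The part of these markers in the results for Dmkn, Klk6 and Krt15 was not tested.

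Akr1c3, an aldo-keto reductase that reduces steroids and prostaglandins, stood at 4.65, 4.75 and 5.08 in 12-week silica rats, against 4.90, 6.05 and 6.29 in 12-week air rats, and at 4.92, 5.64 and 6.31 in 3-week silica rats, against 4.82, 5.35 and 5.97 in 3-week air rats. Detection was passed by 2 silica rats and 6 air rats at 12 weeks, and by 5 rats of each group at 3 weeks. The groups overlapped at both weeks. Its effect was -1.03 at 12 weeks and 0.24 at 3 weeks, with a difference of -1.27 ± 0.31 (SE, adjusted p = 0.0279) and an adjusted p of 0.0729 without the 2 arrays. Akr1c19, of the same family and chosen after its values were seen, fell late with a difference of -0.39 ± 0.11 (SE, adjusted p = 0.0437) and an adjusted p of 0.022 without the 2 arrays. Whether their probes read other members of the family was not tested. Cyp4b1, a lung cytochrome P450, was among the 2 members with the smallest p of 20 genes of xenobiotic and airway metabolism. Its difference was -0.30 ± 0.09 (SE, adjusted p = 0.0546). The other, Cyp1a1, went the other way, with a difference of 0.97 ± 0.29 (SE, adjusted p = 0.0569). Of the 20 genes 0 were called, and 5 had a difference above 0. The list's median difference was -0.23.

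Late falls included Ly49s4, Ece1, Snai1, Cnn1 and Aplnr. Ly49s4, of the Ly49 family of natural killer cell receptors, stood at 4.93, 5.34 and 5.64 in 12-week silica rats, against 6.04, 6.26 and 6.36 in 12-week air rats, and at 5.35, 5.67 and 5.91 in 3-week silica rats, against 5.70, 5.85 and 5.99 in 3-week air rats. The 12-week groups did not overlap and the 3-week groups did. For 12 minus 3 weeks silica rats differed by -0.33 on the log2 scale and air rats by 0.37, so both parts made the difference of -0.70 ± 0.15 (SE, adjusted p = 0.0165), whose adjusted p was 0.022 without the 2 arrays. Of 17 natural killer and cytotoxic cell markers 0 were called and the median difference was -0.13. Ncr1 and Prf1, an activating receptor and the pore-forming protein of these cells, had differences of -0.49 ± 0.16 (SE, adjusted p = 0.0799) and -0.31 ± 0.13 (SE, adjusted p = 0.142), which did not pass. Whether the Ly49s4 probe reads related Ly49 genes was not tested.

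Ece1, which activates endothelin, Snai1, a transcription factor of epithelial-mesenchymal change, and Anxa3, a phospholipid-binding annexin, were chosen after their values were seen. Ece1 stood at 9.15, 9.44 and 9.53 in 12-week silica rats, against 9.66, 9.81 and 9.88 in 12-week air rats, and at 9.60, 9.65 and 9.88 in 3-week silica rats, against 9.43, 9.64 and 9.80 in 3-week air rats, with a difference of -0.45 ± 0.08 (SE, adjusted p = 0.015). Snai1 stood at 9.25, 9.45 and 9.50 in 12-week silica rats, against 9.73, 9.79 and 9.90 in 12-week air rats, and at 9.53, 9.69 and 9.82 in 3-week silica rats, against 9.52, 9.56 and 9.93 in 3-week air rats, with a difference of -0.46 ± 0.09 (SE, adjusted p = 0.015). For both, the 12-week silica rats lay below the 12-week air rats without overlap, and the 3-week groups overlapped. Anxa3 differed by -0.44 ± 0.09 (SE, adjusted p = 0.015), with air rats at 0.39 and silica rats at -0.05 for 12 minus 3 weeks. All 3 were called in all 24 fits that left out 1 array and in all 12 other settings. Tmem109, Zmym6, Dmkn, Ly49s4 and Cxadrl1 were the others of the 8 genes for which that held, Tmem109 and Zmym6 being named here for that alone after their values were seen.

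Cnn1, calponin of smooth muscle, stood at 5.24, 5.33 and 5.70 in 12-week silica rats, against 5.61, 5.76 and 5.94 in 12-week air rats, and at 5.57, 6.04 and 6.58 in 3-week silica rats, against 5.22, 5.80 and 6.05 in 3-week air rats. The groups overlapped at both weeks, with a difference of -0.71 ± 0.16 (SE, adjusted p = 0.0236) and an adjusted p of 0.061 without the 2 arrays. Cspg4, a proteoglycan of pericytes, had a difference of -0.40 ± 0.11 (SE, adjusted p = 0.0441), with 0.134 without the 2 arrays. These 2, both below 0, were the only called ones of 12 markers of smooth muscle and pericytes, against 1.33% of all genes called below 0. The list's median difference was -0.20, and its mean log2 level ran from 7.58 to 7.82 in 12-week silica rats, 7.81 to 7.98 in 12-week air rats, 7.83 to 8.27 in 3-week silica rats and 7.72 to 8.09 in 3-week air rats. The heart muscle and airway lists above also had median differences below 0, and their part in Cnn1 was not tested. Aplnr, the apelin receptor of endothelium, Clic5, a chloride channel protein of type I pneumocytes, Col6a1 and Col13a1, collagens, and Cfp, properdin of the complement system, fell late with differences of -0.34 ± 0.09, -0.27 ± 0.08, -0.32 ± 0.08, -0.32 ± 0.09 and -0.33 ± 0.09 (SE). Their adjusted p ran from 0.0303 to 0.0459 with all arrays and from 0.076 to 0.144 without the 2 arrays. Cfp went against most of its list, as 11 of 15 complement genes had a difference above 0, at a median of 0.18. Cfp was the only one called, while within 12 weeks 11 of the 15 were called higher. Of 28 collagens and matrix proteins Spp1 was called above 0 and Col6a1 below 0, at a median of -0.05. Over all genes 1.53% were called above 0. Among 18 endothelial markers Aplnr alone was called, against 1.33% of all genes called below 0, and the median difference was -0.09.

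The silica rats and the air rats both contributed. Of the 139 genes with a difference above 0, silica rats were called higher at 12 than at 3 weeks for 104, and air rats were called lower for 46. Of the 121 below 0, silica rats were called lower for 78 and air rats higher for 51. Within silica rats 1369 of all genes were called higher at 12 weeks (15.1%) and 1466 lower (16.1%), and within air rats 1035 higher (11.4%) and 923 lower (10.2%). The silica part was the larger for 97 of the 139 and 72 of the 121 genes. Week and array batch cannot be told apart in either part. For Dlk1, a membrane protein that resembles Notch ligands, the air rats made the difference. It stood at 4.39, 4.48 and 4.56 in 12-week silica rats, against 6.07, 6.29 and 6.42 in 12-week air rats, and at 4.53, 4.56 and 4.66 in 3-week silica rats, against 5.16, 5.57 and 6.02 in 3-week air rats. It was detected in no silica rat and in every air rat of both weeks, so silica rats were at least 3.05-fold lower at 12 weeks and at least 1.86-fold lower at 3 weeks. Air rats were higher at 12 than at 3 weeks without overlap, by 0.69, while silica rats stayed below detection, and the difference of -0.78 ± 0.18 (SE, adjusted p = 0.0237) was lost without the 2 arrays, at 0.0621.

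**Figure D3:**
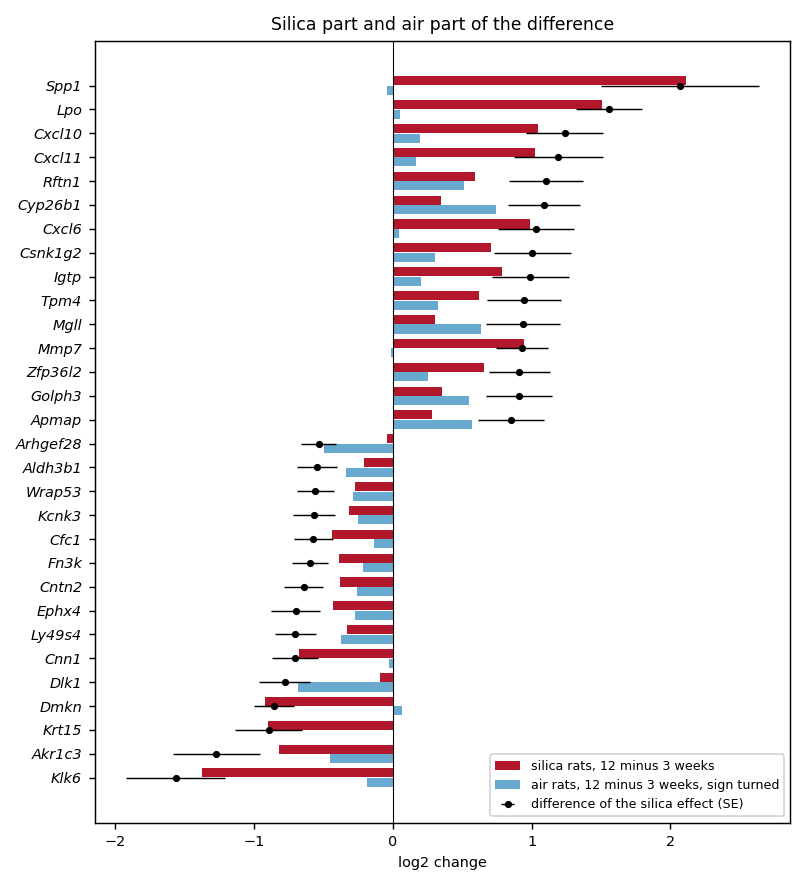
For the 15 called genes with the largest and the 15 with the most negative difference, red bars give the log2 change of silica rats from 3 to 12 weeks, blue bars that of air rats with the sign turned, and black points their sum with its SE. In Lpo, Mmp7, Spp1, Dmkn and Klk6 nearly all of the difference lies in the silica rats, and in Dlk1 and Arhgef28 nearly all lies in the air rats.

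Most of the largest differences were not called without the arrays that stand apart. Of the 15 largest above 0, 4 were called without the 2 arrays, namely Lpo, Cxcl10, Cxcl11 and Mmp7. Rftn1, a lipid raft protein, differed by 1.11 ± 0.27 (SE, adjusted p = 0.0248) with all arrays and had an adjusted p of 0.0579 without the 2. Cyp26b1, which breaks down retinoic acid, fell at 3 weeks, at -0.61, and had an effect of 0.48 at 12 weeks, with a difference of 1.09 ± 0.26 (SE, adjusted p = 0.0245) and 0.0729 without the 2. Csnk1g2, a casein kinase, Tpm4, a tropomyosin, Mgll, which cleaves monoglycerides, Zfp36l2, an RNA-binding protein of mRNA decay, Golph3, a Golgi protein, and Apmap, a membrane protein of adipocytes, had differences of 1.01, 0.95, 0.94, 0.91, 0.91 and 0.85. Their adjusted p without the 2 arrays lay between 0.0621 and 0.114. In all 6 of these, silica replicate 3 at 12 weeks and air replicate 5 at 3 weeks were each the highest rat of their group and silica replicate 4 at 3 weeks the lowest. Of the 15 most negative, 3 were called without the 2 arrays, namely Dmkn, Ly49s4 and Cntn2, a neuronal adhesion molecule that differed by -0.64 ± 0.14 (SE, adjusted p = 0.0181). Ephx4, of the epoxide hydrolase family, Fn3k, which removes sugars from proteins, Cfc1, a co-receptor of Nodal, Kcnk3, a potassium channel, Wrap53, a telomerase-associated protein, Aldh3b1, an aldehyde dehydrogenase, and Arhgef28 had differences of -0.70, -0.60, -0.57, -0.57, -0.56, -0.55 and -0.53. Their adjusted p without the 2 arrays lay between 0.0558 and 0.111.

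Translation, energy and clock genes differed in single members. Rpl5, a ribosomal protein, was lower with silica at 3 weeks, at -0.30, and higher at 12 weeks, at 0.29, with a difference of 0.59 ± 0.11 (SE, adjusted p = 0.015) and an adjusted p of 0.022 without the 2 arrays. Rps2, another, differed by 0.55 ± 0.15 (SE, adjusted p = 0.041), with an adjusted p of 0.1 without the 2 arrays, and both were the called members of 40 ribosomal proteins, whose median difference was -0.01. Whether pseudogene copies share these probes was not tested. Uqcrh of respiratory complex III fell late with a difference of -0.18 ± 0.05 (SE, adjusted p = 0.0493), as the 1 called of 40 genes of oxidative phosphorylation. Ddit3, the stress factor CHOP, differed by -0.26 ± 0.07 (SE, adjusted p = 0.0443), as the 1 called of 26 heat shock and chaperone genes. Over all genes 1.53% were called above 0 and 1.33% below 0. Neither Uqcrh nor Ddit3 was called without the 2 arrays, at adjusted p of 0.0775 and 0.137. Bhlhe40 and Npas2, transcription factors of the circadian clock, differed by 0.42 ± 0.12 (SE, adjusted p = 0.0443) and 0.37 ± 0.10 (SE, adjusted p = 0.0395), as 2 of 13 clock genes called above 0, against 1.53% of all genes. Neither was called without the 2 arrays, at adjusted p of 0.099 and 0.111. Nr1d1, a repressor of the clock, chosen after its values were seen, had effects of -2.24 ± 0.33 at 12 weeks and -2.34 ± 0.33 at 3 weeks, and its difference of 0.10 ± 0.46 (SE, adjusted p = 0.925) had a 95% interval of -0.84 to 1.04. No source used here gives the time of day at which lungs were taken. Sftpd, a surfactant protein, Atp6v1a, a lysosomal proton pump subunit, and Tgfb1, the growth factor of scarring, were among the 2 members with the smallest p in their lists and did not pass, with differences of 0.65 ± 0.19 (SE, adjusted p = 0.0521), 0.71 ± 0.21 (SE, adjusted p = 0.0521) and 0.49 ± 0.16 (SE, adjusted p = 0.0784). Bmp4, the other such member of the TGF-beta and BMP list, went the other way, at -0.29 ± 0.10 (SE, adjusted p = 0.0888). Of 17 surfactant, 29 lysosomal and 25 TGF-beta and BMP genes 0 were called, at median differences of 0.01, 0.06 and -0.0049.

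**Figure D4:**
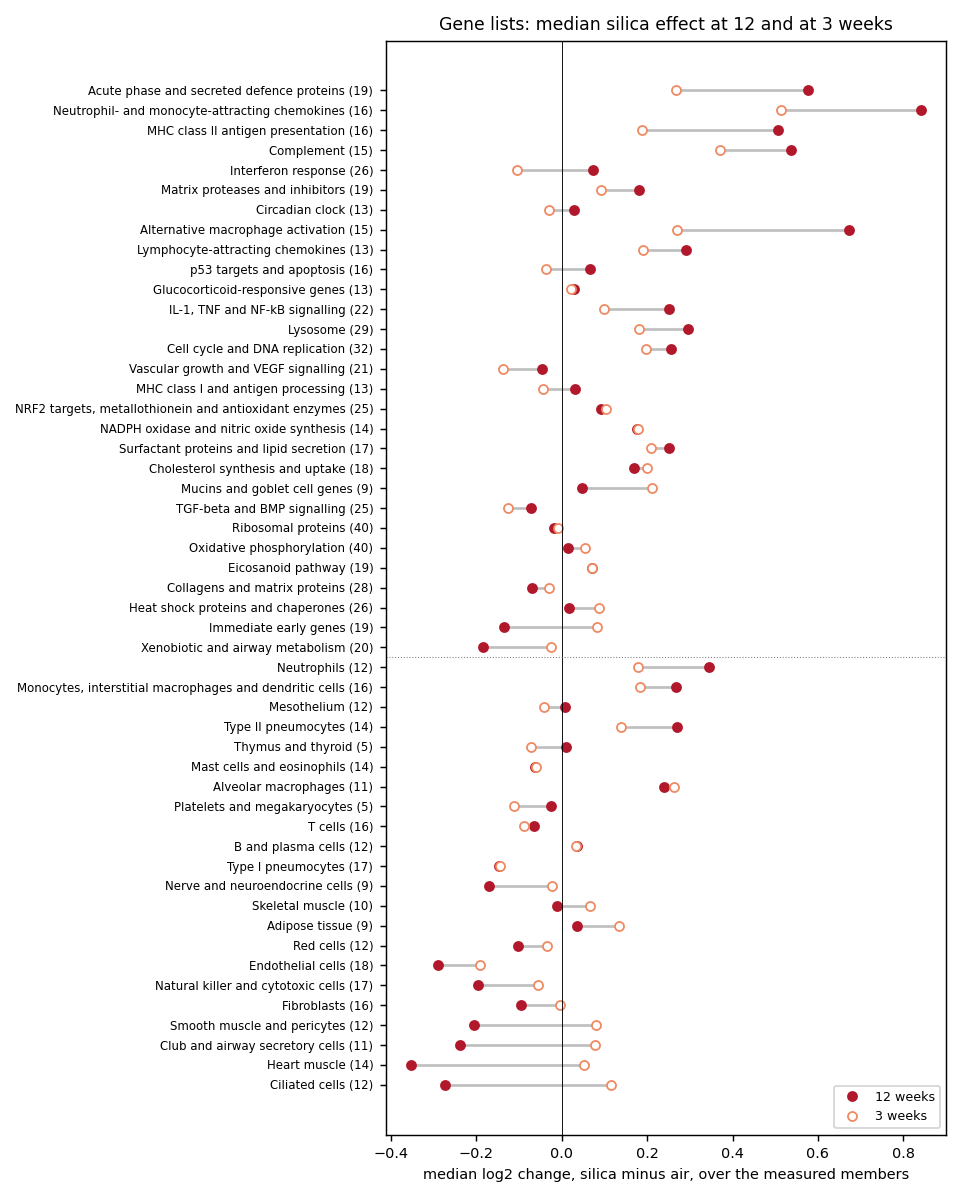
For each of 51 gene lists the median log2 silica effect over its measured members (number in brackets) is plotted at 12 weeks (filled) and at 3 weeks (open), pathways above the dotted line and cell types below it, each ordered by the median difference of its members. Acute phase proteins, attractant chemokines and MHC class II genes have higher medians at 12 than at 3 weeks, and ciliated, heart muscle, club cell and smooth muscle lists have lower ones.

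**Figure D5:**
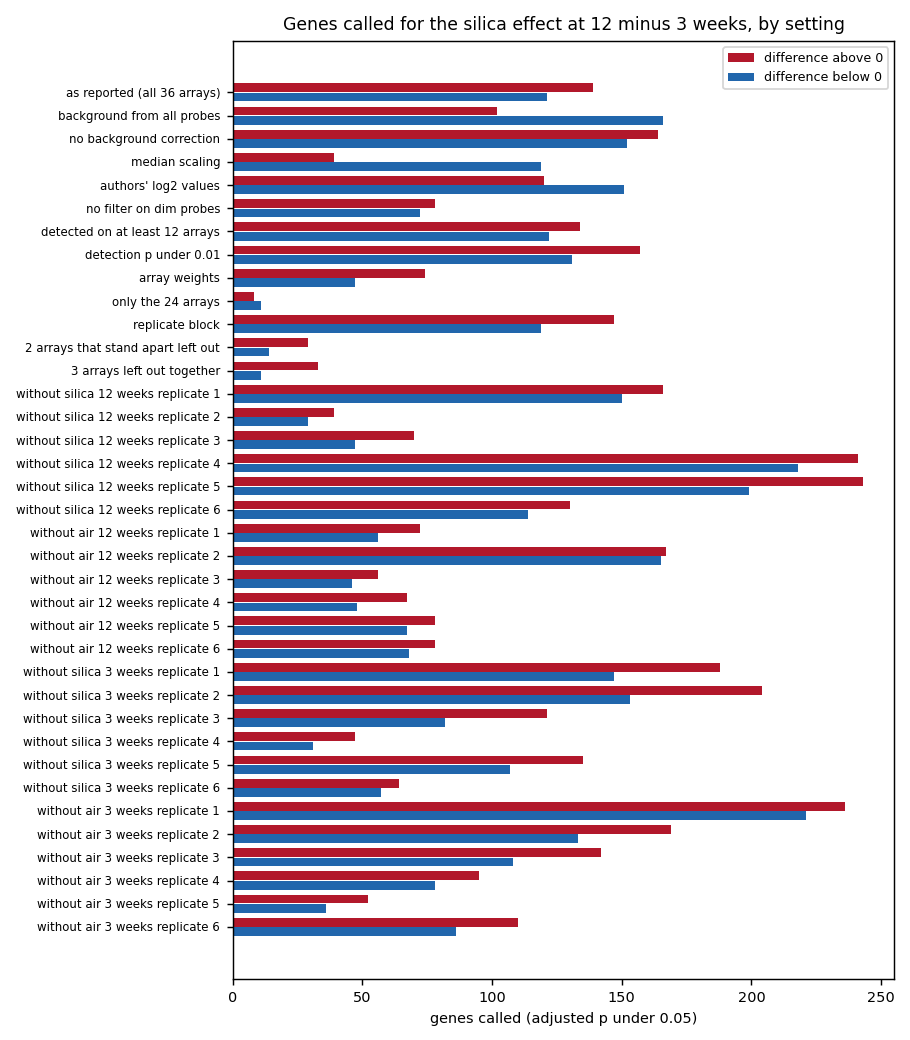
The number of genes called for the difference (horizontal axis) is plotted for each setting, above 0 in red and below 0 in blue. It runs from 39 to 243 above 0 and from 29 to 221 below 0 when 1 array is left out, and is 8 and 11 when only the 24 arrays are normalised and fitted.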

How the data were processed

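Gene expression was measured on Illumina rat BeadChips, and the 36 arrays hold 21792 probes. The deposited table gives raw intensity and a detection p-value per probe, and the authors' log2 values, made per the submitters' processing notes with BeadStudio, lumi and limma. The background was estimated from the detection p-values on 21204 probes whose p-values lie on the expected grid (588 did not), an offset of 16 was added, and intensities were quantile normalised and put on the log2 scale. Probes detected at p under 0.05 on at least 6 arrays were kept, with 1 probe a gene, for 9078 genes. Symbols came from RefSeq by Entrez ID for 13349 probes and by accession for 5, and 8404 probes had no symbol. Limma 3.58.1 in R 4.3.3 fitted the means of 6 groups on 36 arrays (30 residual degrees of freedom), with Benjamini-Hochberg adjusted p under 0.05 as the call. The number of arrays limits the precision. The tests were run on simulated data first. Genes named are the 15 with the largest and the 15 with the most negative difference among those called, up to 3 called members per list, and up to 2 with the smallest p of lists with none called. The members and lists were chosen with earlier results of these data known. Alternatives changed background, scaling, filter, weights, arrays and the replicate block, or used the authors' log2 values.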

Additional observations from a re-analysis of the deposited data

Results flagged for a closer look

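Of 340 combinations of a gene and a group of 6 rats, 50 had 1 array far from the others by Dixon's test at the 95% level, where chance gives about 1 in 20. The 85 genes checked are no random set, as many were named for their difference on these same arrays. The 50 cases can therefore not be read against that rate, and all genes were not checked. The array farthest out most often was silica replicate 4 at 3 weeks, in 13 cases, then air replicate 5 at 3 weeks in 12 and silica replicate 3 at 12 weeks in 8. In silica replicate 4 at 3 weeks, the far log2 levels were Csnk1g2 at 5.08, Zfp36l2 at 5.41, Cx3cl1 at 10.8, Pigr at 11.6, Col6a1 at 11.4, Tgfb1 at 8.49 and Sftpd at 8.19. In silica replicate 4 at 3 weeks also, the far log2 levels were RT1-Ba at 10.4, Rpl5 at 5.68, Rps2 at 9.02, Cd14 at 9.51, Ece1 at 9.88 and Mmp12 at 8.88. In air replicate 5 at 3 weeks, the far log2 levels were Rftn1 at 7.9, Csnk1g2 at 7.3, Tpm4 at 10.6, Mgll at 9.06, Golph3 at 7.83, Apmap at 7.46 and Kcnk3 at 5.22. In air replicate 5 at 3 weeks also, the far log2 levels were Aldh3b1 at 5.18, Atp6v1a at 7.94, RT1-Db1 at 11.7, Itgam at 5.36 and Cd74 at 11.2. In silica replicate 3 at 12 weeks, the far log2 levels were Csnk1g2 at 7.75, Igtp at 6.71, Tpm4 at 10.9, Mgll at 8.85, Wrap53 at 5.86, Cfp at 8.83 and Atp6v1a at 8.63. In silica replicate 3 at 12 weeks also, the far log2 level was Cd74 at 11.5. In air replicate 1 at 12 weeks, the far log2 levels were Cxcl10 at 5.91 and Aldh3b1 at 6.13. In air replicate 2 at 12 weeks, the far log2 levels were Cxcl11 at 5.42 and Atp6v1a at 7.31. In air replicate 1 at 3 weeks, the far log2 levels were Il1rn at 5.37 and Ncr1 at 5.67. In silica replicate 2 at 3 weeks, the far log2 level was Lpo at 5.03. In air replicate 5 at 12 weeks, the far log2 level was Dmkn at 4.79. In silica replicate 1 at 3 weeks, the far log2 level was Dlk1 at 4.66. In air replicate 4 at 12 weeks, the far log2 level was Il1rn at 5.37. In air replicate 4 at 3 weeks, the far log2 level was Uqcrh at 13.2. In silica replicate 5 at 12 weeks, the far log2 level was Clec10a at 9.04. In silica replicate 2 at 12 weeks, the far log2 level was Jak2 at 9.59. In air replicate 6 at 3 weeks, the far log2 level was Jak3 at 10.1. In air replicate 2 at 3 weeks, the far log2 level was Snai1 at 9.93. In air replicate 6 at 12 weeks, the far log2 level was Dhrs9 at 4.61. In air replicate 3 at 12 weeks, the far log2 level was Mmp12 at 6.6. 

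The silica effect differed between 12 and 3 weeks, by limma's test of the difference itself, for 139 genes above 0 and 121 below 0, of which 70 are named. Log2 differences above 0 were 2.07 for Spp1, 1.56 for Lpo, 1.24 for Cxcl10, 1.19 for Cxcl11, 1.11 for Rftn1, 1.09 for Cyp26b1, 1.03 for Cxcl6, 1.01 for Csnk1g2, 0.99 for Igtp and 0.95 for Tpm4. Next came 0.94 for Mgll, 0.93 for Mmp7, 0.91 for Zfp36l2, 0.91 for Golph3, 0.85 for Apmap, 0.75 for Cxadrl1, 0.73 for Orm1, 0.66 for Il1rn, 0.66 for RT1-Db1 and 0.64 for Cx3cl1. Next came 0.63 for Ceacam4, 0.61 for Pigr, 0.59 for Rpl5, 0.57 for Otulinl, 0.55 for Rps2, 0.55 for Wfdc18, 0.52 for Sod2, 0.51 for Rrm2, 0.47 for Jak2 and 0.47 for Ncf4. Next came 0.47 for Dhrs9, 0.47 for Jak1, 0.45 for RT1-Ba, 0.44 for Gja1, 0.43 for Cd14, 0.42 for Bhlhe40, 0.41 for Jak3, 0.37 for Npas2, 0.30 for Clec10a and 0.19 for RT1-Da. Log2 differences below 0 were -1.56 for Klk6, -1.27 for Akr1c3, -0.90 for Krt15, -0.86 for Dmkn, -0.78 for Dlk1, -0.71 for Cnn1, -0.70 for Ly49s4, -0.70 for Ephx4, -0.64 for Cntn2 and -0.60 for Fn3k. Next came -0.57 for Cfc1, -0.57 for Kcnk3, -0.56 for Wrap53, -0.55 for Aldh3b1, -0.53 for Arhgef28, -0.46 for Snai1, -0.45 for Ece1, -0.44 for Anxa3, -0.42 for Duox2 and -0.40 for Cspg4. Next came -0.39 for Akr1c19, -0.36 for Fcgr3a, -0.34 for Aplnr, -0.33 for Cfp, -0.32 for Col6a1, -0.32 for Col13a1, -0.27 for Clic5, -0.27 for Ccnd1, -0.26 for Ddit3 and -0.18 for Uqcrh. Of the 260 calls, 61 held whichever single array was left out.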

How the results depend on the processing

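Across 12 other settings and 24 fits leaving out 1 array, none of the 70 named genes that were called reversed its direction, and 8 of the 260 calls held in all of them. The genes were picked on the same arrays, so a kept direction is a weak check. Counts of calls for the difference, above and below 0, were 102 and 166 with the background from all probes (38.1% above 0, against 53.5%), 39 and 119 with median scaling, 78 and 72 with no filter on dim probes, 74 and 47 with array weights, 8 and 11 with only the 24 arrays, 29 and 14 without the 2 arrays that stand apart, 33 and 11 without 3 arrays, and 147 and 119 with a replicate block. At 1.5-fold or more they were 11 and 1 with the background from all probes, 7 and 1 with the authors' log2 values, 15 and 6 with array weights, 4 and 5 with only the 24 arrays, 11 and 2 without 2 arrays and 10 and 2 without 3, while no background correction left 3 below 0, median scaling 28 below 0 and no filter 23 above 0. Median scaling gave 604 genes higher at 12 weeks and 92 lower at 3 weeks with silica. Between 12 and 3 weeks it gave 3373 higher and 526 lower in silica rats, and 5598 higher and 393 lower in air rats. Leaving out 1 array gave 39 to 243 above 0 and 29 to 221 below 0 for the difference, and 13 to 90 and 5 to 16 at 1.5-fold. The lowest counts came without silica replicate 2 at 12 weeks (39 and 29), silica replicate 4 at 3 weeks (47 and 31), air replicate 5 at 3 weeks (52 and 36) and air replicate 3 at 12 weeks (56 and 46). Within weeks the ranges were 863 to 1181 higher and 1016 to 1423 lower at 12 weeks, and 507 to 805 and 407 to 741 at 3 weeks. Between weeks they were 1088 to 1531 and 1221 to 1578 in silica rats, and 810 to 1214 and 801 to 1080 in air rats. The causes were not tested. Replicate numbers gave no clear pairing of the rats. Of 36 same-numbered pairs 13 correlated over 0.1, with a median of -0.0301, and of 180 other pairs 55 did, with a median of -0.0031. The best match of 7 of 24 arrays had their own number, a count given without a background. Signal near background in at least 1 group limits Lpo, Orm1, Mmp7, Cxcl6, Wfdc18, Dmkn and Dlk1, whose folds are lower bounds, as well as Dhrs9, Duox2, Igtp and Akr1c3.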

Other observations

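Of 3525 detected probes without a symbol, 14 were called for the difference of silica effects between 12 and 3 weeks above 0 and 16 below 0 (0.851%), and 747 had an unadjusted p under 0.05 in limma.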
